A study of Mus musculus with 6 samples.

Results

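The costimulatory receptors described here are 7 genes of the 32285 in the files: *Tnfrsf4*, *Tnfrsf9*, *Tnfrsf18*, *Tnfrsf1b*, *Cd27*, *Cd28* and *Icos*. They were taken by name, and their transcripts were read in CD8 T cells of tumors and of tumor-draining lymph nodes (LN). The mice carried B16-OVA, a melanoma line engineered to make ovalbumin. Control mice were CD8-Cre Rosa26Tomato, and CD8-IFNγRKO mice had in addition IFNgR1flox/flox, so that cells in which the CD8α-driven Cre had been active lost *Ifngr1*, the gene of the IFNγ-binding receptor chain. Cre and the Tomato reporter were thus shared by both genotypes. The mice were 6 to 10 weeks old, and the harvest was labelled day 12. Cells positive for CD45, CD3, CD8 and Tomato were sorted from 3 mice per genotype and pooled into 1 library per tissue and genotype, 4 in all. With 1 library per group no test was possible, and the intervals given below are 95% exact intervals that hold counting error and nothing of the differences between mice.

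Costimulatory receptors deliver the signal that a T cell needs beside the one from its antigen receptor. They belong to 2 families. OX40 (*Tnfrsf4*), 4-1BB (*Tnfrsf9*), GITR (*Tnfrsf18*), TNFR2 (*Tnfrsf1b*) and CD27 (*Cd27*) are members of the TNF receptor superfamily, which recruit TRAF adaptors and activate NF-κB. CD28 (*Cd28*) and ICOS (*Icos*) belong to the immunoglobulin family that also holds the inhibitory CTLA-4 and PD-1, and both recruit PI3 kinase. CD27 and CD28 are present on naive T cells, whereas OX40, 4-1BB and ICOS are known to appear after activation. 4-1BB is widely used as a mark of T cells that have recently met antigen, and antibodies that trigger OX40, 4-1BB or GITR have been studied as tumor therapies.

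The members lie on 3 chromosomes of the mouse. On chromosome 4 of GRCm38.p6, the build of the deposited counts (mm10), *Tnfrsf1b* spans 145212368 to 145246870, *Tnfrsf9* 150920155 to 150946104, *Tnfrsf4* 156013595 to 156016613 and *Tnfrsf18* 156026322 to 156028894. *Tnfrsf4* and *Tnfrsf18* have no protein-coding gene between them, and each overlaps another annotated gene, *Sdf4* at the start of *Tnfrsf4* and the long noncoding *Gm16008* at *Tnfrsf18*. *Cd28* (60746388 to 60773359) and *Icos* (60960773 to 61000322) lie on chromosome 1 with *Ctla4* between them, and *Cd27* lies on chromosome 6 at 125232620 to 125237136. RefSeq start sites were given for 5 of the 7 members, and *Cd28* and *Icos* had none. The 250 bases before a start site were searched on both strands for GGGNNNNNCC (an NF-κB pattern), TTCNNNGAA (the pattern GAS, read by STAT factors) and TGANTCA (AP-1). Of 32851 windows of full length, with the genes of 1 chromosome left out, 45.8% held the first, 7.02% the second and 6.75% the third. The 4 windows that lie outside the gene's span or before an inner start site are printed 5′ to 3′ in the direction of the gene, because 3 of them hold matches and the outer window of *Tnfrsf9* stands beside its inner one. Capitals mark the matches.
Tnfrsf9, outer start, chr4:150919905-150920154: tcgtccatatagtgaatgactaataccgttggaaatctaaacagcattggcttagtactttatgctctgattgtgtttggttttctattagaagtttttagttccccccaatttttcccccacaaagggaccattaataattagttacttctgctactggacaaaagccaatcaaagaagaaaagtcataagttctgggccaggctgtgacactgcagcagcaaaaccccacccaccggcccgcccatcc
Tnfrsf9, inner start, chr4:150927749-150927998: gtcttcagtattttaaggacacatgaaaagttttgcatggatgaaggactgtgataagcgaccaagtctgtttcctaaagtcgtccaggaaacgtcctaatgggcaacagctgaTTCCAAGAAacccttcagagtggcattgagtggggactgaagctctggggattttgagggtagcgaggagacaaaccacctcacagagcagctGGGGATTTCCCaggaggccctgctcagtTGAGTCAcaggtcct
Tnfrsf18, chr4:156026072-156026321: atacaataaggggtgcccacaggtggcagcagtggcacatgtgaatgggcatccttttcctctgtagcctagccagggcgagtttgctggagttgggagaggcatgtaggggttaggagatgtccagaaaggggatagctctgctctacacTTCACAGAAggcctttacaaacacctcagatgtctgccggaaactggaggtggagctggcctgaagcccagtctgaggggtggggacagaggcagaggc
Tnfrsf1b, minus strand, chr4:145246871-145247120: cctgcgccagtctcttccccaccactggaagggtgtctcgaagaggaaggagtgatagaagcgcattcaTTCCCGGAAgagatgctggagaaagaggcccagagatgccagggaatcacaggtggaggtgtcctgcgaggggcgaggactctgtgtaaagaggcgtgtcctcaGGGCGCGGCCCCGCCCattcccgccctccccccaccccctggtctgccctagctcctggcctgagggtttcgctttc
The inner window of *Tnfrsf9* held all 3 patterns, with 2 overlapping NF-κB matches in 1 run of letters, 1 GAS and 1 AP-1 match. The window of *Tnfrsf1b* held 3 overlapping NF-κB matches and 1 GAS match, and that of *Tnfrsf18* 1 GAS match. The outer window of *Tnfrsf9* and the window of *Tnfrsf4* held none. *Cd27* had 2 overlapping NF-κB matches and no other. A match is a description of letters, and binding was not measured.

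After filters on genes per cell, mitochondrial UMIs and *Cd2*, *Cd8a* and *Cd8b1*, and after the removal of a cluster of 12 CD8-IFNγRKO and 23 control cells led by *Cd74*, *H2-Aa*, *Tyrobp* and *Lyz2*, the tumor libraries held 8624 CD8-IFNγRKO and 7080 control cells and the LN libraries 6731 and 6641. Unique molecular identifiers (UMIs, tags of single RNA molecules) summed to 28841136 to 93834798 per library, with medians of 3863 to 9402.5 per cell. Library pairs shared 169 to 249 barcodes. Genes are given as CPM, the UMIs of a gene per 1000000 UMIs summed over all cells of a library or cluster. *Ifngr1* was at 237 CPM in the CD8-IFNγRKO and 718 CPM in the control tumor library, and at 137 and 182 CPM in LN. UMIs from outside the floxed part count for a deleted allele too, and the extent of deletion was not tested in either tissue. Markers of other cells were low but not at 0. The 12 macrophage or dendritic markers summed to 69.1 CPM in CD8-IFNγRKO and 99.3 CPM in control tumors, mostly *Fcer1g*, and to 12.2 to 19.5 CPM in LN. The 5 melanoma markers summed to 2.54 to 3.77 CPM, and 7 B cell markers to 7.56 to 18.9 CPM in tumors and 244 to 254 CPM in LN, where *Ighm* led. *Foxp3* and *Cd4* together were at 4.90 to 19.7 CPM, and 3 NK markers at 131 to 161 CPM in tumors, nearly all *Klre1*. Their part in the receptor values was not tested.

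The first comparison asked how receptor transcripts of tumor cells stood to those of LN cells of the same genotype. By the paper's methods tumors were digested with enzymes and LN were pressed through a strainer, so handling and tissue cannot be told apart. OX40 and 4-1BB were close to absent in LN and abundant in tumors, GITR, TNFR2 and ICOS were several times higher in tumors, and CD27 and CD28 were abundant in both tissues. For *Tnfrsf9*, the control tumor library was at 778 CPM (771 to 785) and the CD8-IFNγRKO tumor library at 677 CPM (672 to 683), against 7.85 CPM (6.88 to 8.92) and 7.28 CPM (6.33 to 8.34) in control and CD8-IFNγRKO LN. Both tumor libraries lay far above both LN libraries, which did not differ beyond their intervals. *Tnfrsf4* was at 220 CPM (216 to 224) in control and 183 CPM (180 to 185) in CD8-IFNγRKO tumors, and at 1.97 CPM (1.5 to 2.54) and 2.53 CPM (1.98 to 3.18) in LN. The LN values rest on 59 and 73 UMIs, and their intervals overlap.

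*Icos* stood at 277 CPM (273 to 281) in control tumors and 157 CPM (155 to 160) in CD8-IFNγRKO tumors, and at 37.1 CPM (35.0 to 39.4) and 40.6 CPM (38.3 to 43.0) in the LN libraries. *Tnfrsf18* was at 233 CPM (229 to 237) and 200 CPM (197 to 203) in control and CD8-IFNγRKO tumors, and at 46.1 CPM (43.7 to 48.6) and 51.7 CPM (49.1 to 54.4) in LN. *Tnfrsf1b* was at 94.9 CPM (92.4 to 97.4) and 65.1 CPM (63.5 to 66.8) in tumors, and at 17.2 CPM (15.8 to 18.8) and 16.5 CPM (15.1 to 18.1) in LN. For these 3 the order was control tumor, CD8-IFNγRKO tumor and then the LN libraries. Between the 2 tumor libraries the intervals of these 3 receptors did not overlap. Between the 2 LN libraries only those of *Tnfrsf18* did not. Overlap of intervals was not counted over all genes, so these statements have no background beside them.

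*Cd27* was at 212 CPM (208 to 216) in control and 174 CPM (172 to 177) in CD8-IFNγRKO tumors, and at 148 CPM (144 to 153) in control and 149 CPM (144 to 153) in CD8-IFNγRKO LN. *Cd28* was at 273 CPM (269 to 277) and 194 CPM (192 to 197) in tumors, and at 155 CPM (150 to 159) and 162 CPM (157 to 167) in LN. Both genes were thus within a factor of 2 between any of the libraries, whereas the other receptors were not.

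**Figure D1:**
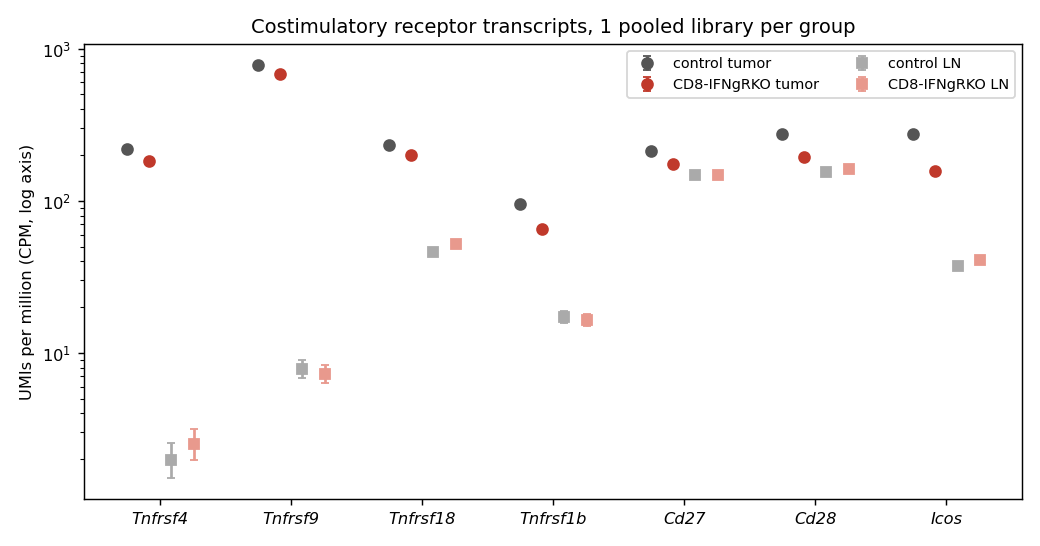
Pooled transcript level (CPM, log axis) of each receptor in the 4 libraries, with 95% exact Poisson intervals (counting error only). *Tnfrsf4* and *Tnfrsf9* were below 10 CPM in both LN libraries and above 180 CPM in both tumor libraries, while *Cd27* and *Cd28* lay between 148 and 273 CPM everywhere.

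As log2 ratios of tumor over LN with 1 CPM added, the control values were 6.46 (6.29 to 6.63) for *Tnfrsf9*, 6.22 (5.96 to 6.47) for *Tnfrsf4*, 2.87 (2.78 to 2.95) for *Icos*, 2.40 (2.27 to 2.52) for *Tnfrsf1b*, 2.31 (2.23 to 2.39) for *Tnfrsf18*, 0.81 (0.77 to 0.86) for *Cd28* and 0.51 (0.46 to 0.56) for *Cd27*. All 7 members were thus at least 0.5 higher in the control tumor, where 28.9% of 8219 genes that reached 10 CPM in at least one of these libraries were that much higher and 25.1% that much lower. In the CD8-IFNγRKO libraries the ratios were 6.36 (6.18 to 6.53) for *Tnfrsf9*, 5.70 (5.46 to 5.94) for *Tnfrsf4*, 1.93 for both *Icos* (1.84 to 2.01) and *Tnfrsf18* (1.86 to 2.01), 1.91 (1.79 to 2.04) for *Tnfrsf1b*, 0.26 (0.22 to 0.31) for *Cd28* and 0.23 (0.18 to 0.28) for *Cd27*. There 5 of 7 were at least 0.5 higher, beside 30.5% of 8282 genes higher and 27% lower. The median ratio of the 7 was 2.40 in control and 1.93 in CD8-IFNγRKO mice, and that of all genes 0.04 and 0.05. Tumor and LN libraries were also scaled by their median gene, which lay 0.14 higher in the control tumor and 0.17 higher in the CD8-IFNγRKO tumor among genes with 50 CPM in both. On that scale *Cd27* and *Cd28* were at 0.37 and 0.67 in control and at 0.06 and 0.09 in CD8-IFNγRKO mice. Without antigen receptor, ribosomal, mitochondrial and heat shock genes in the library size, the ratio of *Cd27* in CD8-IFNγRKO mice was -0.03 and that of *Cd28* 0.00. In cells without a UMI of the mitotic genes *Mki67*, *Top2a*, *Ccnb2* and *Cdk1* they were 0.62 and 0.58, so that 7 of 7 were at least 0.5 higher. In control mice 6 of 7 were at least 0.5 higher under median scaling, with the reduced library size and with 10 CPM added. At the main setting 5 of 7 were at least 1 higher. The share of all genes was not taken for these counts or for cells without a mitotic UMI.

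The main question was how these transcripts compared between CD8 T cells of CD8-IFNγRKO and control mice. In tumors all 7 receptors were lower in the CD8-IFNγRKO library than in the control library. The log2 ratio of CD8-IFNγRKO over control was -0.81 (-0.85 to -0.78) for *Icos*, which was the lowest of the members. It was -0.54 (-0.59 to -0.49) for *Tnfrsf1b* and -0.49 (-0.52 to -0.46) for *Cd28*. The remaining members were closer to control, with -0.28 (-0.31 to -0.25) for *Cd27*, -0.27 (-0.30 to -0.23) for *Tnfrsf4*, -0.22 (-0.25 to -0.18) for *Tnfrsf18* and -0.20 (-0.22 to -0.18) for *Tnfrsf9*. Of the members 2, *Icos* and *Tnfrsf1b*, were at least 0.5 lower and 0 at least 0.5 higher, beside 5.15% lower and 7.67% higher of the 7716 genes with at least 10 CPM. Of these genes, 1.72% lay below *Icos*, 4.45% below *Tnfrsf1b*, 5.37% below *Cd28* and 14.2% to 20.7% below the other 4. The median over the members was -0.28 and over all genes 0.02.

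In LN the receptors differed little between the genotypes. The log2 ratio was 0.16 (0.06 to 0.26) for *Tnfrsf18*, 0.13 (0.01 to 0.24) for *Icos*, 0.06 (0.01 to 0.12) for *Cd28*, 0.00 (-0.06 to 0.06) for *Cd27* and -0.05 (-0.23 to 0.12) for *Tnfrsf1b*. *Tnfrsf4* and *Tnfrsf9* did not reach 10 CPM there, and their ratios of 0.25 (-0.11 to 0.60) and -0.10 (-0.34 to 0.15) have wide intervals. None of the 5 receptors that reached 10 CPM was 0.5 higher or lower, and neither were most genes, since 0.241% of 7472 were that much higher and 0.428% that much lower. The median over all 7 was 0.06, beside 0.03 over all genes.

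**Figure D2:**
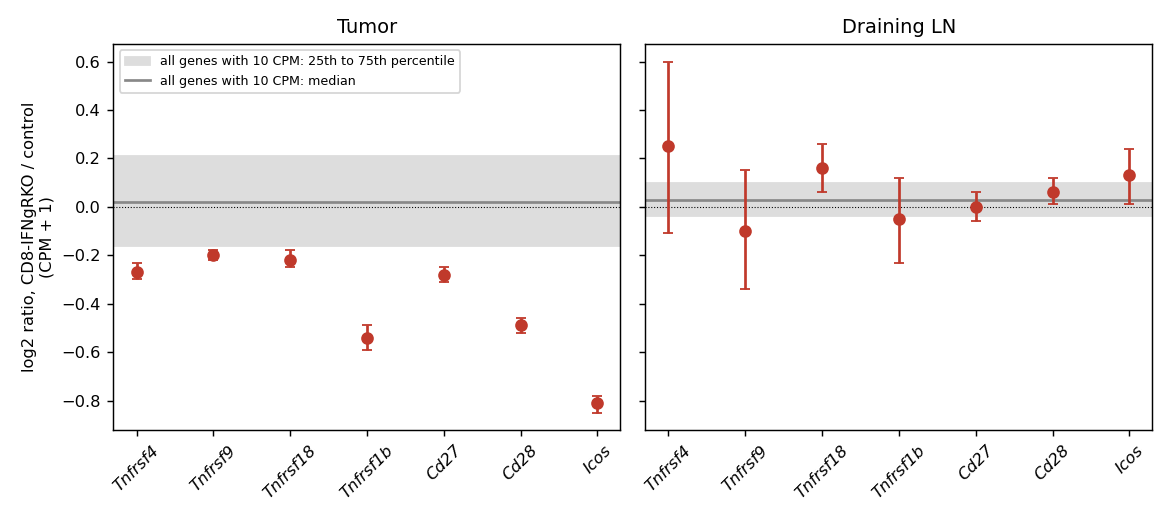
Log2 ratio of CD8-IFNγRKO over control (1 CPM added) in tumor and LN for each receptor, with 95% exact intervals (counting error only) and the median and quartile range of all genes with at least 10 CPM in grey. In tumors the 7 points lie from -0.81 to -0.20, below the quartile range of all genes, and in LN from -0.10 to 0.25.

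The tumor ratios kept their sign under each of the 12 alternatives that were run. One setting that moved 5 of the 7 more than any other, but not *Tnfrsf4* or *Tnfrsf9*, was the use of only those cells without a UMI of these mitotic genes, which were 2801 of 8624 CD8-IFNγRKO and 4092 of 7080 control tumor cells. There *Tnfrsf18* was at -0.03, *Cd27* at -0.05, *Tnfrsf9* at -0.17, *Tnfrsf1b* at -0.29, *Tnfrsf4* at -0.33, *Cd28* at -0.36 and *Icos* at -0.58. The median UMI count per tumor cell was 9402.5 in the CD8-IFNγRKO and 6313.5 in the control library, and its part in this choice of cells was not tested. When each cell was thinned to 1600 UMIs, *Icos* was at -0.87, *Cd28* at -0.46, *Tnfrsf1b* at -0.44, *Tnfrsf4* at -0.41 and *Tnfrsf18* at -0.29, with *Cd27* and *Tnfrsf9* at -0.20 and -0.19. Without the largest clone of each tumor library, *Icos* was at -0.71, *Tnfrsf4* at -0.37 and *Tnfrsf9* at -0.25.

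Tumor cells of both libraries were clustered together without the receptors among the variable genes, and the clusters are named by their number and leading genes. T0 was led by *Gzmd*, *Gzme* and *Ccl1*, T1 by *Osgin1*, *Tcrg-C1* and *Cd7*, T3 by the mitotic genes *Ccnb2*, *Cdc20* and *Cdkn3*, T4 by *Tcf7* and *S1pr1*, T5 by the interferon-stimulated *Ifit1*, *Ifit3* and *Rsad2*, and T6 by *Xcl1*, *Crtam* and *Il2*. T2 (*Gm20628*, *Hist2h4* and *Hist1h2af*) had low UMI counts, with medians of 1893 and 1039 per cell, and T7 was led by the histone genes *Hist1h3i*, *Hist1h2af* and *Hist1h2ak*. The clusters were built from other genes of the same cells, so the levels below are descriptions. Genes were scaled within each library before clustering, and the shared clusters depend on this. Without it, a large cluster held 2905 CD8-IFNγRKO and 501 control cells, and another held 285 and 2818. Cells of a cluster thus need not be alike between libraries. In T0, *Gzmd* was at 88.1 CPM in CD8-IFNγRKO and 436 CPM in control cells.

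*Tnfrsf9* and *Tnfrsf4* varied most between clusters. *Tnfrsf9* was highest in T6, at 1643 CPM in 65 control and 1311 CPM in 220 CD8-IFNγRKO cells, and lowest in T4, at 220 and 93.4 CPM. *Tnfrsf4* reached 348 CPM in T6 and 271 CPM in T0 of the control, and 263 CPM in T0 of the CD8-IFNγRKO library, where T6 was at 149 CPM. Its lowest value was again in T4, at 101 CPM in control and 21.6 CPM in CD8-IFNγRKO cells. OX40 and 4-1BB thus shared their lowest cluster in both libraries.

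The other receptors were more even over the clusters. *Cd28* ranged from 211 CPM in T3 to 429 CPM in T6 in control cells and from 145 to 269 CPM in the same clusters of CD8-IFNγRKO cells. *Cd27* was between 160 and 239 CPM in control and between 154 and 287 CPM in CD8-IFNγRKO cells, lowest in T7 and highest in T6 in both. *Icos* was highest in T5 of the control, at 344 CPM, and in T6 of the CD8-IFNγRKO library, at 240 CPM. *Tnfrsf18* lay between 171 CPM in T3 and 357 CPM in T6 in control and between 140 CPM in T4 and 234 CPM in T0 in CD8-IFNγRKO cells. *Tnfrsf1b* was lowest in T3 of both libraries, at 65.5 and 48.8 CPM. It was highest in T5 of the control, at 101.5 CPM, and in T6 of the CD8-IFNγRKO library, at 76.4 CPM.

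**Figure D3:**
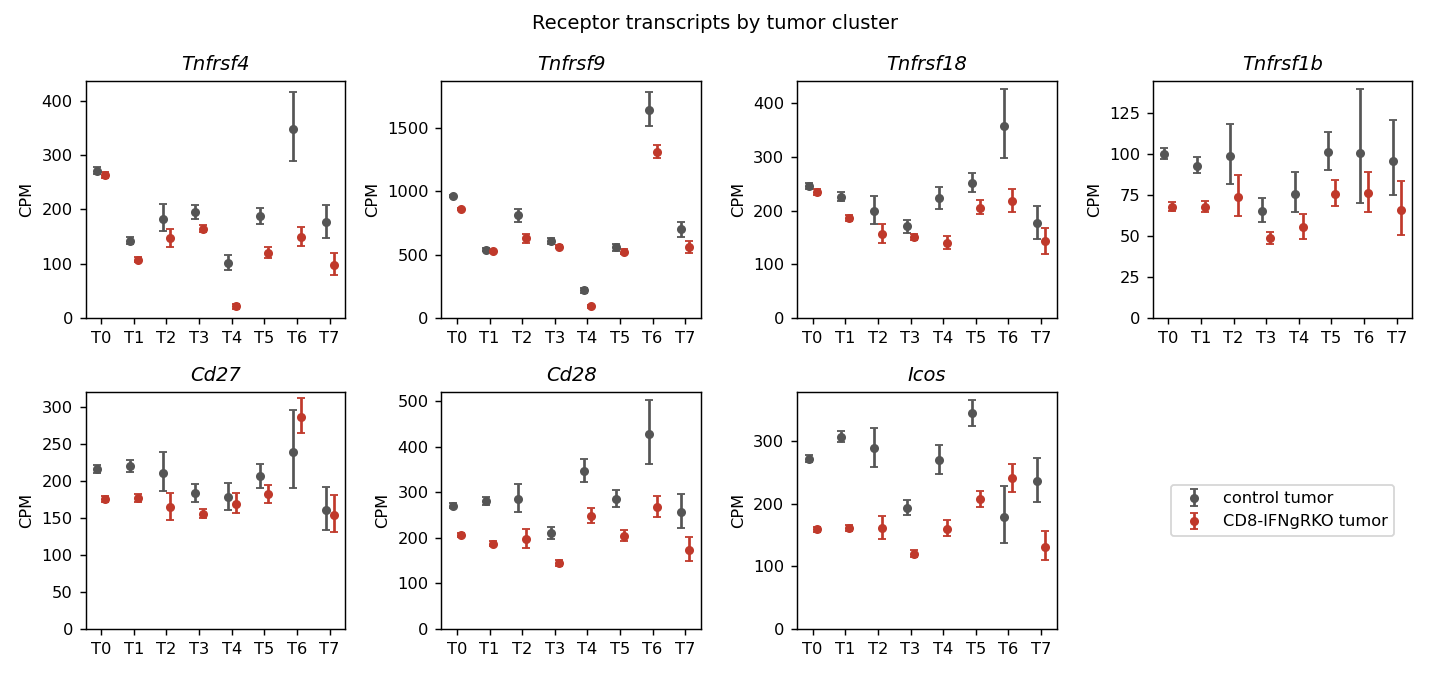
Transcript level (CPM, linear axes from 0) of each receptor in the 8 tumor clusters, control in grey and CD8-IFNγRKO in red, with 95% exact Poisson intervals. *Icos* lies lower in CD8-IFNγRKO cells in 7 of 8 clusters, and the gap for *Tnfrsf4* is near 0 in T0 and widest on the log scale in T4.

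Within clusters, *Cd28*, *Tnfrsf1b*, *Tnfrsf4*, *Tnfrsf9* and *Tnfrsf18* were lower in CD8-IFNγRKO cells in 8 of 8 clusters, and *Icos* and *Cd27* in 7 of 8. The interval lay below 0 in 8 clusters for *Cd28* and *Tnfrsf4* and in 7 for *Tnfrsf1b*, *Tnfrsf18* and *Icos*. It did so in 6 for *Tnfrsf9* and in 5 for *Cd27*. Such counts were not taken over all genes, so they have no background beside them. The log2 ratio of *Cd28* was between -0.67 and -0.39 and that of *Tnfrsf1b* between -0.56 and -0.39. The interval of *Tnfrsf1b* in T6, from 35 control UMIs, was -0.93 to 0.17 and held 0. *Icos* was at -0.92 (-0.98 to -0.86) in T1 and -0.77 (-0.82 to -0.72) in T0, and at -0.69 or below in 7 clusters. T6 was the exception, with 240 CPM in CD8-IFNγRKO and 178 CPM in control cells, a ratio of 0.43 (0.05 to 0.83) that rests on 62 control UMIs. *Cd27* in T6 was at 0.26 (-0.07 to 0.61), and from -0.36 to -0.06 elsewhere.

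For *Tnfrsf4* and *Tnfrsf9* the ratio depended on the cluster. *Tnfrsf4* was at -0.04 (-0.08 to 0.00) in T0, -0.41 (-0.49 to -0.32) in T1, -1.22 (-1.53 to -0.90) in T6 and -2.18 (-2.55 to -1.81) in T4. *Tnfrsf9* was at -0.03 (-0.07 to 0.01) in T1, -0.17 (-0.19 to -0.15) in T0 and -1.23 (-1.43 to -1.02) in T4. *Tnfrsf18* was at -0.06 (-0.11 to -0.02) in T0, -0.66 (-0.85 to -0.48) in T4 and -0.71 in T6. T0, where these ratios were near 0 or small, had 2580 CD8-IFNγRKO and 2542 control cells, and T4 had 904 and 548. With each cluster given one weight for both libraries, the pooled ratios were -0.20 for *Tnfrsf4*, -0.15 for *Tnfrsf9* and -0.79 for *Icos*.

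The cluster T4 was looked at more closely, as the place of the widest gap. Thinned to 1600 UMIs, 1.76% (0.986% to 2.88%) of 854 CD8-IFNγRKO and 9.515% (7.12% to 12.4%) of 515 control cells of T4 had a UMI of *Tnfrsf4*, and 8.31% (6.55% to 10.4%) and 18.45% (15.2% to 22.1%) had one of *Tnfrsf9*. The 10 cells with most UMIs held 55.6% of the 81 *Tnfrsf4* UMIs of CD8-IFNγRKO cells and 30.6% of the 206 of control cells. *Gzmd*, which leads T0, was at 6.39 CPM in CD8-IFNγRKO and 12.3 CPM in control cells of T4, against 88.1 and 436 CPM in T0. *Tcf7* was at 351 CPM in CD8-IFNγRKO and 251 CPM in control cells of T4, so the libraries differed in a leading gene of the cluster as well.

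T4 also differed in its clones. A clone was a set of cells with the same V and J genes and CDR3 nucleotides in both antigen receptor chains, and of the T4 cells with a clone 51.8% of 608 CD8-IFNγRKO and 36.2% of 384 control cells were the only cell of theirs. In T4 cells of clones with at least 10 cells, *Tnfrsf4* was at 37.1 CPM in 228 CD8-IFNγRKO and 216 CPM in 195 control cells, a log2 ratio of -2.51 (-3.08 to -1.97). *Tnfrsf9* there was at 140 and 365 CPM, with -1.38 (-1.70 to -1.07), and *Tnfrsf18* at 152 and 349 CPM, with -1.20 (-1.51 to -0.89). In T4 cells of single-cell clones, *Tnfrsf4* had 2 UMIs in 315 CD8-IFNγRKO and 4 UMIs in 139 control cells, which is too few to read a ratio from. *Tnfrsf9* was at 41.9 and 56.0 CPM in those cells, with -0.41 (-1.04 to 0.25), and *Tnfrsf18* at 138 and 156 CPM, with -0.17 (-0.54 to 0.20). For these 3 receptors the gap in T4 was thus seen in its expanded clones, and the intervals in its single-cell clones held 0, which does not show that they were alike. *Icos* was lower in both kinds of clone, with -0.72 (-0.99 to -0.46) in expanded and -0.45 (-0.84 to -0.04) in single-cell clones, and so was *Cd28*, with -0.40 (-0.64 to -0.16) and -0.38 (-0.67 to -0.08). *Tnfrsf1b* had the other order, with 0.21 (-0.31 to 0.75) in expanded and -0.66 (-1.28 to -0.04) in single-cell clones, and *Cd27* was at -0.06 (-0.42 to 0.30) and 0.04 (-0.32 to 0.41). One clone held 97 of the 228 CD8-IFNγRKO cells, and the clone with most control cells 28 of 195. Without these clones, an alternative chosen after seeing the data, *Tnfrsf9* was at -0.80 (-1.15 to -0.46) in expanded clones of T4, *Tnfrsf4* at -2.35 (-3.06 to -1.70) and *Tnfrsf18* at -1.16 (-1.54 to -0.79).

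Both chains could be read in 68.8% of tumor cells from CD8-IFNγRKO mice and 60.45% of those from control mice. *Tnfrsf9* was at 778 CPM in control cells of clones with 10 or more cells, 615 CPM in clones of 2 to 9 cells and 266 CPM in single-cell clones. CD8-IFNγRKO cells had 700, 549 and 123 CPM in these classes. *Tnfrsf4* went from 219 to 188 and 101 CPM in control and from 195 to 123 and 15.45 CPM in CD8-IFNγRKO cells. The single-cell clones were mostly T4 cells, 315 of 364 in the CD8-IFNγRKO and 139 of 183 in the control library. Outside T4, *Tnfrsf4* in single-cell clones was at 258 CPM (207 to 317.5) in 44 control and 68.6 CPM (44.4 to 101) in 49 CD8-IFNγRKO cells, and *Tnfrsf9* at 618 CPM (537 to 707) and 431 CPM (366 to 504). In the control library 88 of the 92 *Tnfrsf4* UMIs of single-cell clones lay in these cells outside T4, and the interval there held the level of the clones with 10 or more cells. *Icos* was at 277, 293 and 179 CPM in control and 155, 173 and 107 CPM in CD8-IFNγRKO cells, lower in single-cell clones only. *Cd28* stayed within 192 to 216 CPM over the 3 classes in CD8-IFNγRKO cells and within 226 to 328 CPM in control cells. *Cd27* was at 160 to 174 CPM and 162 to 232 CPM, with the lowest value in single-cell clones of either library. The median depth of single-cell clones was 3998 and 4039 UMIs per cell, against 10503 and 6324 in clones of 10 or more.

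The 10 largest clones of each tumor library are families of cells rather than replicates, and they could not be assigned to mice. *Icos* had a median of 290 CPM and a range from 191 to 372 CPM over the 10 control clones, and a median of 155 CPM and a range from 106 to 273 CPM over the 10 CD8-IFNγRKO clones. Of the CD8-IFNγRKO clones 6 lay below every control clone and 10 below the control median, and the ranges overlap. Such counts were not taken over all genes, here or for the receptors that follow. The control clones had 55 to 1104 cells and the CD8-IFNγRKO clones 133 to 1463 cells. *Cd28* went from 211 to 330 CPM (median 275) in control and from 161 to 270 CPM (median 189) in CD8-IFNγRKO clones, of which 7 lay below every control clone. *Cd27* had medians of 215 and 174 CPM with 8 clones below every control clone, and *Tnfrsf1b* 89.7 and 66.4 CPM with 5. *Tnfrsf18* had medians of 232 and 191 CPM, with 10 clones below the control median and 0 below every control clone. The number below every control clone was 0 for *Tnfrsf4* and 1 for *Tnfrsf9*. *Tnfrsf4*, with medians of 207 and 202 CPM, and *Tnfrsf9*, with 720 and 648 CPM, had ranges of 66.8 to 312 against 68.4 to 246 CPM and 421 to 1189 against 124.5 to 973 CPM in control and CD8-IFNγRKO clones. The lowest *Tnfrsf9* value, 124.5 CPM, came from a CD8-IFNγRKO clone of 149 cells with 65.1% of its cells in T4. Among the 10 CD8-IFNγRKO clones, this clone also had the highest *Icos* (273 CPM) and *Cd28* (270 CPM).

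**Figure D4:**
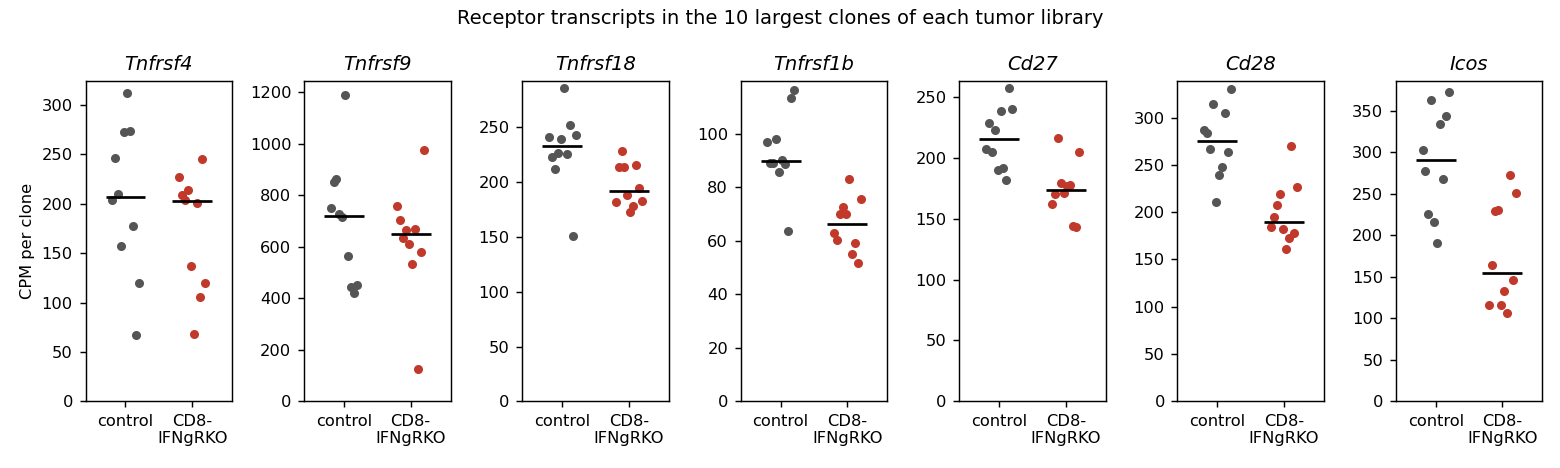
Transcript level (CPM, linear axes from 0) of each receptor in each of the 10 largest clones of the control and CD8-IFNγRKO tumor libraries, with the median as a line. The median of *Icos* was 290 CPM over control and 155 CPM over CD8-IFNγRKO clones, and those of *Tnfrsf4* were 207 and 202 CPM.

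LN cells were clustered in the same way. N0 was led by *Slc6a19*, *Ccr9* and *Actn2*, N1 by *Itga4*, *Auts2* and *Macf1*, N2 by *Ccl5*, *Ccl4* and *Gzmm*, N3 by *Isg15*, *Ifit1* and *Ifit3*, N4 by *Tnfrsf9*, *Hivep3* and *Nfkbid*, and N5 by *S100a4*, *S100a6* and *Capg*. N6 was led by *Hbb-bs*, *Ccnb1ip1* and *Gm5148*, with a median of 1702 and 1149 UMIs, and held 0.921% of CD8-IFNγRKO and 3.96% of control LN cells. N7 (*Hist1h1b*, *Pclaf* and *Mki67*) had 10 and 16 cells and is not described further. *Tnfrsf9* was at 54.9 CPM in CD8-IFNγRKO and 65.2 CPM in control cells of N4 and at 23.4 and 16.8 CPM in N5, and between 1.90 and 6.15 CPM in N0 to N3. It leads N4 although it was not used to build it, and *Relb* and *Nfkb2*, subunits of NF-κB, are among its 10 leading genes. *Tnfrsf4* was highest in N5, at 17.4 and 10.2 CPM from 23 and 20 UMIs, and at 3.01 CPM or less in N0 to N4. N5 was also the cluster with the most *Cd27* (213 and 221 CPM), *Cd28* (227 and 228 CPM), *Icos* (68.0 and 82.8 CPM) and *Tnfrsf1b* (24.2 and 25.4 CPM). Most receptors thus had their LN maximum in the same cluster, and *Tnfrsf9* had it in N4. Between genotypes the largest gap in a cluster with over 100 cells in both libraries was 1.00 (-0.65 to 2.17) for *Tnfrsf4* in N4, whose interval holds 0. *Icos* was 0.44 (0.18 to 0.71) higher in CD8-IFNγRKO cells of N1 and 0.55 (0.10 to 1.00) higher in N3. In N0 it was at 0.18 (0.00 to 0.37), in N2 at -0.22 (-0.58 to 0.15) and in N5 at -0.28 (-0.66 to 0.09). *Tnfrsf18* was at 0.38 in both N1 (0.14 to 0.61) and N2 (0.06 to 0.69). *Cd28* was at 0.15 (0.03 to 0.28) in N1 and 0.25 (0.10 to 0.40) in N2.

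Shares of cells with a UMI were compared after thinning each cell to 1600 UMIs, which left out 278 cells of the CD8-IFNγRKO tumor, 699 of the control tumor, 41 of the CD8-IFNγRKO LN and 237 of the control LN. *Icos* was detected in 21.6% (20.7% to 22.5%) of CD8-IFNγRKO and 35.2% (34.0% to 36.4%) of control tumor cells. *Cd28* was detected in 28.5% (27.5% to 29.5%) and 36.7% (35.5% to 37.9%), and *Tnfrsf9* in 52.2% (51.2% to 53.3%) and 55.3% (54.1% to 56.5%). *Tnfrsf18* was found in 26.0% and 31.3%, *Cd27* in 25.6% and 28.3%, *Tnfrsf4* in 18.6% and 23.8% and *Tnfrsf1b* in 10.4% and 13.9%. All 7 shares were lower in the CD8-IFNγRKO library, a count that was not taken over all genes. Unthinned, the more deeply sequenced CD8-IFNγRKO cells had 64.0% against 71.2% for *Icos* and 81.4% against 80.1% for *Tnfrsf9*. In LN, 0.284% and 0.219% of CD8-IFNγRKO and control cells had a UMI of *Tnfrsf4*, 0.927% and 0.781% of *Tnfrsf9*, 2.54% and 2.51% of *Tnfrsf1b*, 6.25% and 5.84% of *Icos*, 8.15% and 7.28% of *Tnfrsf18*, 21.2% and 20.5% of *Cd27* and 22.0% and 20.9% of *Cd28*. As a background, barcodes without CD8 T cell transcripts and with at least 2 markers of B, macrophage, dendritic or melanoma cells were used. Each library had 12 to 25 of them, with a median of 1000 to 2380 UMIs. These cell types were not shown to lack the receptors, so a UMI there may be the cell's own. Between 0% and 12% of these barcodes held a UMI of a receptor, with intervals that reached 38.5%. With so few, the control LN shares cannot be told apart from this background for any receptor, and in CD8-IFNγRKO LN only *Cd27* and *Cd28* lay above its interval. In tumors the control shares of 6 receptors lay above the background interval, the exception being *Tnfrsf1b*, and those of *Tnfrsf9* and *Cd28* did so in the CD8-IFNγRKO library. With no UMI of a receptor, the upper limit was 13.7% for the 25 control and 26.5% for the 12 CD8-IFNγRKO tumor barcodes. These counts thus depend on the number of barcodes and do not compare the genotypes. The background barcodes were not thinned.

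Receptors were also counted together in single cells. At 1600 UMIs, 92.2% (91.5% to 92.9%) of control and 86.8% (86.1% to 87.5%) of CD8-IFNγRKO tumor cells had a UMI of at least 1 receptor, and 46.8% and 48.7% of control and CD8-IFNγRKO LN cells. Cells with UMIs of 3 receptors were 24.2% of control and 17.5% of CD8-IFNγRKO tumor cells, and those with 4 were 11.6% and 7.46%. In LN 3 receptors were seen together in 1.12% and 1.08% of the cells. *Tnfrsf9* was detected in 66.7% of CD8-IFNγRKO tumor cells with a UMI of *Tnfrsf4* and in 48.9% of those without, and in 64.4% and 52.5% in the control library. Cells of T4 were low in both genes, and their part in these shares was not tested. *Tnfrsf18* was in 34.7% of cells with and 23.98% without *Tnfrsf4* in the CD8-IFNγRKO library, and in 35.8% and 29.9% in the control library. Beside some other receptors *Tnfrsf9* differed in 1 library more than in the other. In the CD8-IFNγRKO library it was in 58.0% (55.9% to 60.1%) of cells with and 50.2% (49.0% to 51.5%) of cells without *Tnfrsf18*. In the control library these shares were 57.7% (55.5% to 59.9%) and 54.2% (52.7% to 55.7%), and their intervals overlap. In the control library it was in 60.7% (57.4% to 64.0%) of cells with and 54.4% (53.1% to 55.7%) without *Tnfrsf1b*. In the CD8-IFNγRKO library these were 51.7% (48.3% to 55.1%) and 52.3% (51.2% to 53.4%), with no such difference. Beside *Cd27*, *Tnfrsf9* was in 59.0% (56.7% to 61.3%) of control cells with and 53.8% (52.4% to 55.3%) without. The CD8-IFNγRKO shares were 54.3% (52.1% to 56.4%) and 51.5% (50.3% to 52.8%), with overlapping intervals. *Cd28* stood at 36.6% with and 36.8% without *Tnfrsf9* in control and at 28.4% and 28.6% in CD8-IFNγRKO cells, within counting error. Few receptors are caught in a cell at this depth, and a receptor without a UMI may still be expressed.

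**Figure D5:**
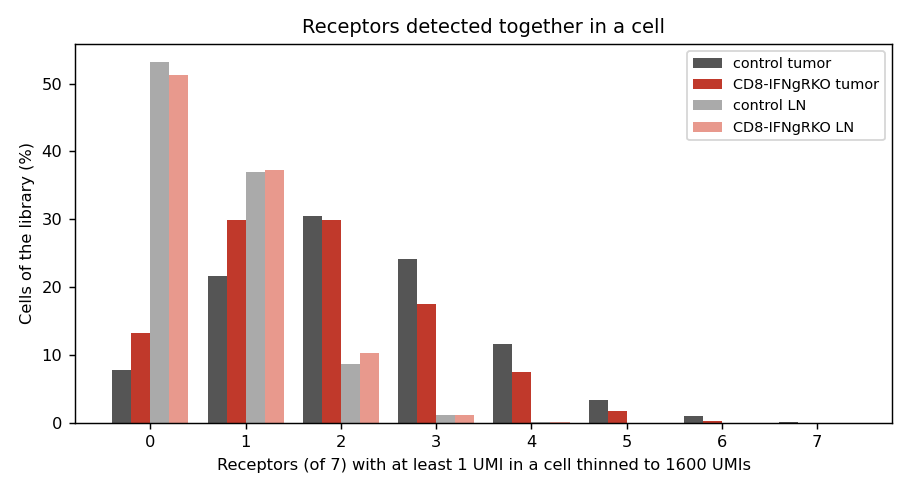
Share of the cells of each library (%) by the number of the 7 receptors with at least 1 UMI, after thinning to 1600 UMIs. Control tumor cells have 24.2% of cells with 3 receptors and CD8-IFNγRKO tumor cells 17.5%, and 53.17% of control and 51.33% of CD8-IFNγRKO LN cells have no receptor.

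Genes whose level went most alike with each receptor were sought over 26 groups of cells, each cluster of each library with at least 100 cells, among 4515 genes with at least 50 CPM in any group. Pearson's r of log2(CPM + 10) is a description, as the groups share libraries and the contrast of tumor and LN. *Tnfrsf4* was most like *Dusp14* (0.986), *Adam8* (0.985) and the inhibitory receptor *Havcr2* (0.985), and *Tnfrsf9* most like *Pdcd1lg2* (0.985), *Mapkapk2* (0.983) and *Csnk2b* (0.980). *Tnfrsf18* was most like *Vcpkmt* (0.984), *Lag3* (0.984) and *Crem* (0.983), and *Tnfrsf1b* like *Tigit* (0.988), *Sh2d2a* (0.988) and *Lag3* (0.987). For *Icos* the 3 were *H3f3b* (0.982), *Tnfrsf1b* (0.979) and *Ndfip1* (0.975). Lower values were reached by *Cd28*, with *Bcl2l11* (0.908), *Ptpn22* (0.885) and *Dtx3* (0.878), and by *Cd27*, with *Ptpn1* (0.828), *Ucp2* (0.825) and *Ccr8* (0.817). Between members r was 0.92 to 0.98 among *Tnfrsf4*, *Tnfrsf9*, *Tnfrsf18*, *Tnfrsf1b* and *Icos*, and 0.626 to 0.821 for pairs with *Cd27* or *Cd28*.

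The other genes of the pathways were set beside the receptors in tumors, CD8-IFNγRKO over control. As background for the counts per list, 5.15% of 7716 genes were at least 0.5 lower and 7.67% at least 0.5 higher. Of 9 genes of ligands, 5 reached 10 CPM, of which 3 were at least 0.5 lower and 1 higher, with a median of -0.54. *Cd86*, a ligand of CD28 best known from antigen-presenting cells, was at 25.5 CPM in CD8-IFNγRKO and 47.1 CPM in control cells, a ratio of -0.86 (-0.94 to -0.79), and *Tnf*, the ligand of TNFR2, at 44.0 and 68.1 CPM, with -0.62 (-0.68 to -0.56). The ligand of 4-1BB, *Tnfsf9*, was at 13.2 and 8.90 CPM, with 0.52 (0.38 to 0.65), and *Lta* at -0.02 (-0.15 to 0.11). The macrophage or dendritic markers given above moved in the same direction as *Cd86*, and their part in it was not tested. None of 5 TRAF adaptors passed 0.5. *Traf1* and *Traf5* were at -0.27 and -0.26 and *Traf2* and *Traf3* at 0.09 and 0.11, with a median of -0.14 over the list.

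In the NF-κB arm, 12 of 13 genes reached 10 CPM, and 2 of them were at least 0.5 lower and 0 higher, with a median of -0.35. They were *Rel*, a subunit of NF-κB, at 38.1 and 70.4 CPM with -0.87 (-0.93 to -0.80), and *Tnfaip3*, its feedback inhibitor, at 289 and 449 CPM with -0.63 (-0.66 to -0.61). *Chuk* was at 0.08 and *Nfkb1* at -0.14. Of 14 genes taken for signaling next to CD28 and ICOS, 2 were at least 0.5 lower and 1 higher, with a median of -0.16. The PI3 kinase subunit *Pik3r1* was at -0.55 (-0.60 to -0.49), whereas *Akt1* was at 0.21 (0.17 to 0.25). The gene that was higher, *Pdk1* at 0.57 (0.46 to 0.69), encodes under this symbol a kinase of pyruvate dehydrogenase and not the kinase of AKT. The opposing receptors *Ctla4* and *Pdcd1* were each at -0.40, from 596 and 819 CPM in control cells. Of 10 genes in a list of other costimulatory receptors 5 reached 10 CPM. The list was drawn widely and also held *Tnfrsf1a* and the ligand gene *Cd40lg*. Of the 5 genes 1, *Cd226* at -0.55 (-0.59 to -0.51), was at least 0.5 lower, with *Cd2* at -0.39, *Tnfrsf1a* at -0.21 and *Crtam* at 0.35. In LN, 1 gene of these lists passed 0.5 between genotypes, *Tnf* at -0.60 (-0.80 to -0.40). Of 7472 genes there, 0.428% were at least 0.5 lower and 0.241% at least 0.5 higher.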

How the data were processed

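The authors mapped reads of the 5′ gene expression libraries to mm10 with Cell Ranger 6.0.0, as the file headers state, and deposited unnormalized UMI counts per gene and barcode called a cell, and UMI counts per contig for the TCR libraries of both tumor samples. After the study's methods, a barcode was used if it had between 200 and 6000 genes, up to 3% of UMIs from mitochondria and up to 20% from any single gene, and if *Cd2*, *Cd8a* and *Cd8b1* all had a UMI. Doublets were not called, and leaving out the 8% of cells with most UMIs was an alternative. Pooled CPM had exact Poisson intervals, log2 ratios (1 CPM added) exact conditional binomial intervals and shares Clopper-Pearson intervals, which cover counting error only and narrow with depth. No test was run, with 1 library of 3 pooled mice per group. The intervals were tested on simulated data, which cannot check differences between mice.

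Clustering used scanpy 1.11.5 and igraph 0.11.9 (3000 variable genes without the receptors, 15 principal components, 20 neighbours, Louvain at 0.4, cell cycle scores, mitochondrial and ribosomal shares regressed out, genes scaled within each library), in place of Seurat and Harmony. A cluster with 3 or more markers of another cell type among its 10 leading genes was removed. Names in the text follow fixed rules: all 7 receptors, the 2 highest and 2 lowest genes of each pathway list with 10 CPM, the 3 most alike genes and 3 leading genes of each cluster. Markers named for other cells, and *Ifngr1*, and *Gzmd* and *Tcf7* in T4, were added as checks. Some genes that these rules name are not reported here. Members and lists were chosen with earlier results of these data known.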

Additional observations from a re-analysis of the deposited data

Results flagged for a closer look

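Of the receptors, 3 stood in opposite directions between the genotypes in tumor and LN, each with an interval that did not hold 0, which is what marks them. The log2 ratio of CD8-IFNγRKO over control was -0.22 in tumors and 0.16 in LN for *Tnfrsf18*, -0.49 and 0.06 for *Cd28*, and -0.81 and 0.13 for *Icos*. The difference between tissues was not tested, since each value sets 1 library against 1 library, and the LN values are small beside the tumor values of *Cd28* and *Icos*. In LN the median over all genes was itself 0.03, and 63.3% of genes lay below *Cd28*. With the LN libraries scaled by their median gene, the LN ratios were 0.13 for *Tnfrsf18*, 0.10 for *Icos* and 0.03 for *Cd28*. Intervals were not taken on that scale, nor was the share of all genes that this rule would mark.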

How the results depend on the processing

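The number of receptors at least 0.5 lower in CD8-IFNγRKO than in control tumors was 2, and fell to 1 with cells thinned to 1600 UMIs, with 10 CPM added in place of 1 and in cells without a mitotic UMI, each time because *Tnfrsf1b* moved above -0.50, and to 0 with a fold of 1. It was 3 under median-ratio scaling, with *Cd28* at -0.51. It stayed at 2 with *Cd28* in place of *Tnfrsf1b* for the mean of per-cell CPM (-0.50 and -0.45) and without the 8% of cells with most UMIs (-0.51 and -0.49). The share of all genes past the limit was not taken under these settings, so these counts have no background beside them. *Tnfrsf1b* ranged from -0.56 to -0.29 and *Cd28*, just outside the limit, from -0.51 to -0.36. With clusters at resolution 0.8, the highest cluster of 4 of 7 receptors held most of the same cells in the control tumor. The smallest tumor cluster at that resolution had 237 control cells. T6, with 65, was thus not a cluster of its own there, and its high values depend on the resolution. No value that was at least 0.5 with an interval off 0 changed sign. In tumors 84 of 84 alternative ratios between genotypes had the sign of the reported one, and in LN 66 of 70. Between tumor and LN 77 of 77 did in control and 76 of 77 in CD8-IFNγRKO mice, the exception being *Cd27* at -0.03. With 10 CPM added, *Tnfrsf4* in tumor over LN was 4.26 in control and 3.94 in CD8-IFNγRKO mice. The share of all genes at least 0.5 higher or lower in LN was 0.451% and 0.753% without a filter on low values. The weights for clusters, the omission of low-UMI clusters and of the largest clones, in all cells and in T4, and the split of single-cell clones were chosen after seeing the data. No paired analysis was possible because each group is 1 library. Depth limits the LN values of *Tnfrsf4* and *Tnfrsf9*, which rest on 59 to 235 UMIs per library.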
